A study of Homo sapiens with 5 samples.

Results

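DHT-only regions are places in the genome of VCaP cells where a ZBTB7A peak was called after 4 hours of androgen and in neither of the other conditions. VCaP cells are a line established from a prostate cancer metastasis, and they carry the androgen receptor. ZBTB7A was mapped by chromatin immunoprecipitation and sequencing in cells kept in 5% hormone-depleted serum with 10 nM of the androgen DHT (DHT, 2 libraries), in cells in the same serum with vehicle (CSS, 2 libraries), and in cells grown in 10% full serum (FBS, 1 library). All groups share the cell line and the antibody. The label text on treatment is the same for all 5 libraries, so the absence of added DHT in FBS cells was read from their culture condition and the design text. Each condition is given as 1 peak list, and there is therefore no spread between replicates and no p-value between conditions.

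The peaks of the 3 lists on chromosomes 1 to 22 and X were merged wherever they overlapped by at least 1 bp, which gave 148985 regions. Of these, 7485 (5.02%) held a DHT peak and no CSS or FBS peak, and they are the members described here. They made up 23.8% of the 31460 regions with a DHT peak. The mirror class, CSS-only regions, held 10990, or 31.3% of the 35072 regions with a CSS peak. Each member was made of exactly 1 DHT peak. The members were chosen by the authors' peak calls in all 3 lists, so peak strength, width and read numbers in the DHT list are described without a test.

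ZBTB7A, also called LRF or Pokemon, is a transcription factor with a BTB domain, through which it forms dimers and recruits co-repressors, and zinc fingers, which contact DNA. It is known for silencing the fetal globin genes in adult red blood cells and for context-dependent roles in cancer. DHT binds the androgen receptor, which then enters the nucleus and binds chromatin within hours. Positions are on hg19, as the lists give them. No hg19 sequence or gene annotation was used, so members are given by position and not by gene.

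The reads behind each peak could be recovered from the lists. For each peak the authors deposited a fold enrichment and a −log10 p. In 100% of the peaks of each list, a whole number of reads at the summit (the summit pileup, the reads covering that base after extension) and a local background gave both values. The largest difference in −log10 p was 6.37e-05 in DHT, 0.000102 in CSS and 0.000127 in FBS. For 48 DHT peaks a second whole number also matched within 0.0002, and the closer match was used. The lowest background of a list, its floor, corresponded to 9.69 reads per 10 kb in DHT, 13.4 in CSS and 60.2 in FBS. Taken as the average read density, the floor made the CSS list 1.38 times and the FBS list 6.21 times as deep as the DHT list.

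Above the floor, the background was a whole number of reads in a 10 kb window, within 0.01 reads, for 100% of DHT, 99.99% of CSS and 99.99% of FBS peaks. In 0 of these peaks was the 10 kb count below the summit pileup. Above the floor that count already exceeded 9.69 reads in DHT, 13.4 in CSS and 60.2 in FBS. Median pileups were 8, 8 and 12 reads, so for many peaks this outcome was fixed in advance. The whole-number counts alone place the background on the scale of the list's own reads. The sources used here do not say whether a control library entered it.

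Members rested on few reads. Their summit pileup had a median of 5 reads, with the middle of the distribution between 5 and 7 reads (quartiles) and a range of 3 to 112 reads. DHT peaks that overlapped a CSS or FBS peak had a median of 9 reads. A pileup of 5 reads was the most common, at 2417 members (32.3%), and has an exact 95% Poisson interval of 1.62 to 11.7 reads. A pileup of 4 reads was found at 1215 members and 6 reads at 1315. Of the members, 3750 (50.1%, exact 95% interval 49.0 to 51.2%) had at most 5 reads, against 13.8% of partnered DHT peaks. At least 10 reads were present at 688 members (9.19%) and at least 20 reads at 19. These intervals and all others here cover counting error only, and reads without molecular identifiers are not independent molecules.

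**Figure D1:**
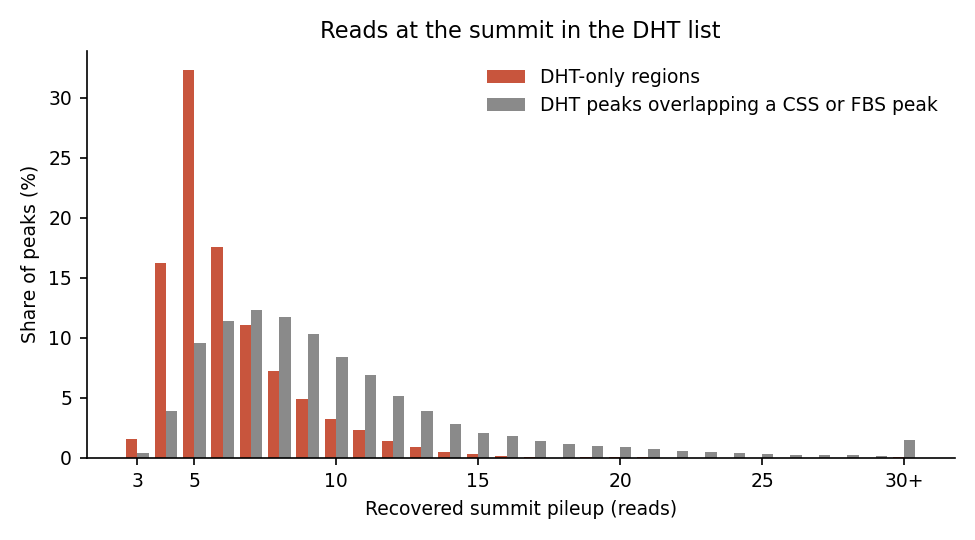
Share of peaks in percent (vertical axis) by recovered summit pileup in reads (horizontal axis, with 30 or more reads in the last bar), for DHT-only regions and for DHT peaks that overlapped a CSS or FBS peak. DHT-only regions are highest at 5 reads (32.3%), while partnered peaks spread to higher pileups with a median of 9 reads.

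The 10 kb windows of members held few reads as well. The 10 kb window around a member held a median of 13 reads, against 25 reads for partnered DHT peaks. Above the floor this count was never below the summit pileup, and it may contain the peak's own reads. It is therefore not a measure of the surroundings apart from the pileup. The background was at the floor for 20.4% of members and for 6.42% of partnered peaks. Members were narrow: 52.9% lay within 2 bp of the narrowest width in the list, 198 bp, against 16.7% of partnered peaks, and 27 members were at least 500 bp wide. Their median fold enrichment was 5.02 and their median −log10 q was 4.21. A −log10 q of at least 5 was reached by 2081 members (27.8%) and of at least 10 by 134 (1.79%). The median CSS-only peak looked alike in its own list, with 6 reads at the summit, 16 reads in 10 kb, a fold enrichment of 4.78 and a width of 192 bp, against 5 reads, 13 reads, 5.02 and 199 bp for DHT-only peaks. These pairs come from lists of different depth and are set side by side only.

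**Figure D2:**
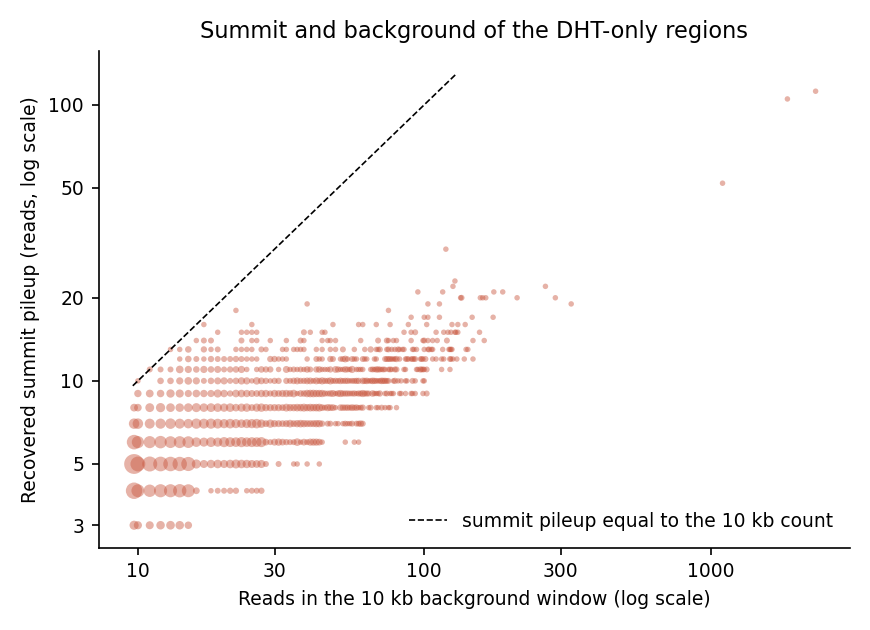
Recovered summit pileup (vertical axis, reads, log scale) against reads in the 10 kb background window (horizontal axis, log scale) for the 7485 DHT-only regions, with point area growing with the number of members at the same values and the dashed line where both are equal. Members crowd at 4 to 6 reads over 10 to 20 reads per 10 kb, and 3 members with over 1000 reads in 10 kb stand apart at the right.

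The share of DHT peaks called in DHT alone fell as the reads at the summit rose. It was 55.7% (48.7 to 62.5%) at 3 reads, 54.7% (52.6 to 56.8%) at 4 reads and 49.5% (48.1 to 51.0%) at 5 reads. It was 20.7% at 7 reads, 15.1% at 8 reads and 9.56% at 10 to 11 reads. At 15 to 19 reads 2.36% (46 of 1947 peaks) and at 20 reads or more 1.24% (19 of 1537 peaks) were DHT-only. The CSS list showed the same fall at a higher level, with 59.4% of peaks CSS-only at 5 reads, 14.6% at 10 to 11 reads and 5.08% (134 of 2639 peaks) at 20 reads or more. In each of the 11 pileup classes the share was lower for DHT-only than for CSS-only. The rule itself sets these shares, and the intervals cover counting error within a list. The lists were therefore not tested against each other. The CSS list also had more peaks than the DHT list, so DHT peaks had more possible partners there. Equal pileups do not mark equal enrichment in these lists, since the CSS list was the deeper.

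**Figure D3:**
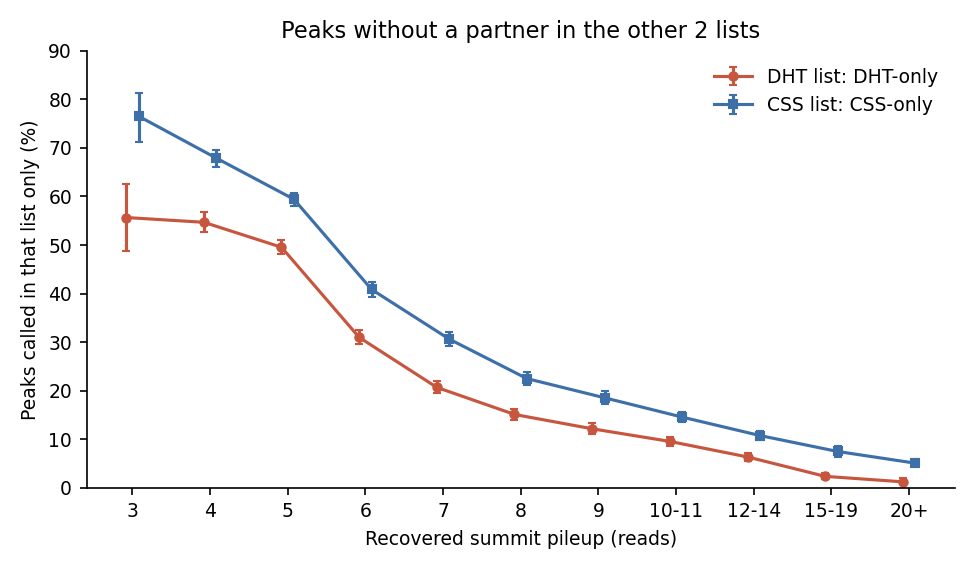
Share of peaks with no partner in either other list, in percent with exact 95% intervals (vertical axis), by recovered summit pileup in reads (horizontal axis), for the DHT list and the CSS list. Both shares fall with pileup, and the DHT-only share lies below the CSS-only share in every class, at 1.24% against 5.08% for 20 reads or more.

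Among DHT peaks without a CSS partner, the rest had an FBS peak and are not members. Their share was 26.5% (437 of 1652) at 4 reads, 46.4% at 8 reads and 45.7% (16 of 35, 28.8 to 63.4%) at 20 reads or more. Among CSS peaks without a DHT partner the corresponding shares with an FBS peak were 16.7%, 36.1% and 28.7% (22.4 to 35.8%). The lowest pileup was 3 reads in the DHT and CSS lists and 6 reads in the FBS list, whose background floor was higher.

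The members with the highest −log10 q had 14 to 30 reads at the summit over a background of 0.317 to 2.36 reads, apart from 1 described below. Their backgrounds were above the median of all members, 0.257 reads. The highest lay on chromosome 10 from 55958226 to 55958518, with 18 reads at the summit (exact 95% Poisson interval 10.7 to 28.4 reads) over a background of 0.436 reads. Its −log10 q was 19.01, rank 257 of the DHT list, and its nearest CSS peak was 21.9 kb and its nearest FBS peak 97.1 kb away. The next, on chromosome 11 from 1456444 to 1456873, had 30 reads (20.2 to 42.8), the most of any member with a background below 5 reads, over a background of 2.36 reads. Its nearest CSS peak, 11.4 kb away, had 7 reads. The member on chromosome 6 from 120682024 to 120682287 had 16 reads (9.15 to 26.0) over 0.337 reads, and its nearest CSS peak was 24.8 kb away.

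The strong members had FBS peaks at very different distances. On chromosome 22 from 18099615 to 18099858 there were 19 reads (11.4 to 29.7), with an FBS peak of 15 reads 7.37 kb away and the nearest CSS peak 52.0 kb away. On chromosome 3 from 126552630 to 126552939 there were 15 reads (8.40 to 24.7), with an FBS peak of 13 reads 1.26 kb away and the nearest CSS peak 129 kb away. The member on chromosome 19 from 30620448 to 30620763 had 16 reads and an FBS peak 7.52 kb away. Those on chromosome 4 from 187795726 to 187796033, chromosome 2 from 79129370 to 79129638 and chromosome 7 from 137455286 to 137455503 each had 14 reads (7.65 to 23.5). Their nearest CSS peaks were 15.3, 16.4 and 26.6 kb away and held 4 or 5 reads.

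The remaining member of the top 10 was of another kind. It lay on chromosome 10 from 42394761 to 42394963, with 105 reads at the summit over a background of 36.7 reads and a fold enrichment of only 2.81. Its 10 kb window held 1855 reads. A CSS peak with 127 reads lay 850 bp away and an FBS peak with 203 reads 936 bp away. A second member nearby, from 42385906 to 42386167, had 112 reads over 46.1, with a CSS peak of 197 reads 136 bp away and an FBS peak of 237 reads 128 bp away. Both therefore lay inside a stretch that was covered by many reads in all 3 conditions. A background above 5 reads was rare, at 6 members (0.0802%), against 256 partnered DHT peaks (0.994%). The other 4 of these members, named after their values were seen, lay on chromosome 19 from 37780748 to 37780986 (52 reads over 21.8), chromosome 11 from 63768561 to 63768792 (19 over 6.45), chromosome 4 from 190986829 to 190987026 (20 over 5.68) and chromosome 1 from 1013707 to 1014108 (22 over 5.25). Each of the 4 had a CSS peak within 500 bp, at gaps of 383, 328, 25 and 302 bp.

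The weakest members were at the calling limit. The lowest −log10 q, 1.31, was shared by 10 members with 3 reads each at the summit (0.619 to 8.77 reads). The first of them by position was on chromosome 1 from 7122744 to 7122941, and a CSS peak of 4 reads lay 875 bp from it. The others named by the same rule were on chromosome 11 from 128811770 to 128811967 and chromosome 12 from 22557947 to 22558144, with CSS peaks 36.3 and 27.9 kb away. The widest members were on chromosome 10 from 134727573 to 134728331 (759 bp, 11 reads), chromosome 17 from 73584670 to 73585385 (716 bp, 10 reads) and chromosome 18 from 77505358 to 77506063 (706 bp, 8 reads). The member on chromosome 17 ended 24 bp from an FBS peak of 24 reads.

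The rule separates regions that touch from regions that overlap. Inside it, the member on chromosome 1 from 1476065 to 1476262 (14 reads) directly adjoined a CSS peak of 20 reads. The members on chromosome 1 from 245628318 to 245628565 (7 reads) and on chromosome 14 from 99947196 to 99947624 (9 reads) directly adjoined an FBS peak of 11 reads and a CSS peak of 8 reads. Just outside it, DHT peaks on chromosome 1 from 15284301 to 15284508 (6 reads), chromosome 11 from 69518611 to 69519032 (8 reads) and chromosome 11 from 73371817 to 73372014 (5 reads) shared 1 bp with a peak of another list. In all, 57 members lay less than 10 bp from a CSS or FBS peak.

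A CSS or FBS peak lay within 10 kb of 4959 members (66.3%, 65.2 to 67.3%) and within 500 bp of 1268 (16.9%). For CSS-only regions, the share with a DHT or FBS peak within 10 kb was 63.4%. The FBS list alone held 124868 peaks, and the share for arbitrary positions was not computed. Whether members lay nearer to called sites than other positions was therefore not tested. For CSS peaks alone, 628 members (8.39%, 7.77 to 9.04%) had one within 500 bp and 2128 (28.4%) within 10 kb, and the median gap was 22.1 kb. For FBS peaks, 929 members (12.4%) had one within 500 bp and 4455 (59.5%) within 10 kb, and the median gap was 7.35 kb. Members near a CSS peak had more reads: those within 500 bp had a median of 8 reads, and 26.0% of them had at least 10, while those over 10 kb away had a median of 5 reads and 5.34% had at least 10. The CSS peaks within 500 bp of a member had a median of 8 reads, as did all CSS peaks, and 38.5% of them had a DHT partner of their own, against 58.9% of all CSS peaks. Those CSS peaks were picked for a nearby DHT peak that overlapped none. The rule may therefore shape this contrast, which was not tested.

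DHT-only and CSS-only regions were similarly placed relative to the other lists. An FBS peak lay within 500 bp of 12.4% of DHT-only and 11.7% of CSS-only regions, so DHT-only exceeded CSS-only by 0.683 percentage points, with a Newcombe interval (95%) of -0.270 to 1.65. Within 10 kb the shares were 59.5% and 57.6%, a difference of 1.94 points (0.492 to 3.38). A peak of the other hormone-depleted list lay within 500 bp of 8.39% of DHT-only and 7.34% of CSS-only regions, a difference of 1.05 points (0.259 to 1.85). The CSS list had more peaks than the DHT list, so this last pair of shares had unequal numbers of possible neighbours.

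The share of members with a CSS neighbour did not grow evenly with distance. It grew by 1.57 percentage points per kb between 1 and 5 kb and by 2.36 points per kb between 5 and 10 kb. For CSS-only regions and DHT neighbours the growth was 1.47 and 2.23 points per kb. Among peaks of the DHT list itself the step was larger: the share of members with a DHT peak that had a CSS partner grew by 0.605 points per kb between 1 and 5 kb and by 1.61 points per kb between 5 and 10 kb. For FBS neighbours of members the growth was 5.39 and 4.05 points per kb, with no such step. A distance of 5 kb is the reach of the 10 kb background window to each side, and its part in the step was not tested.

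**Figure D4:**
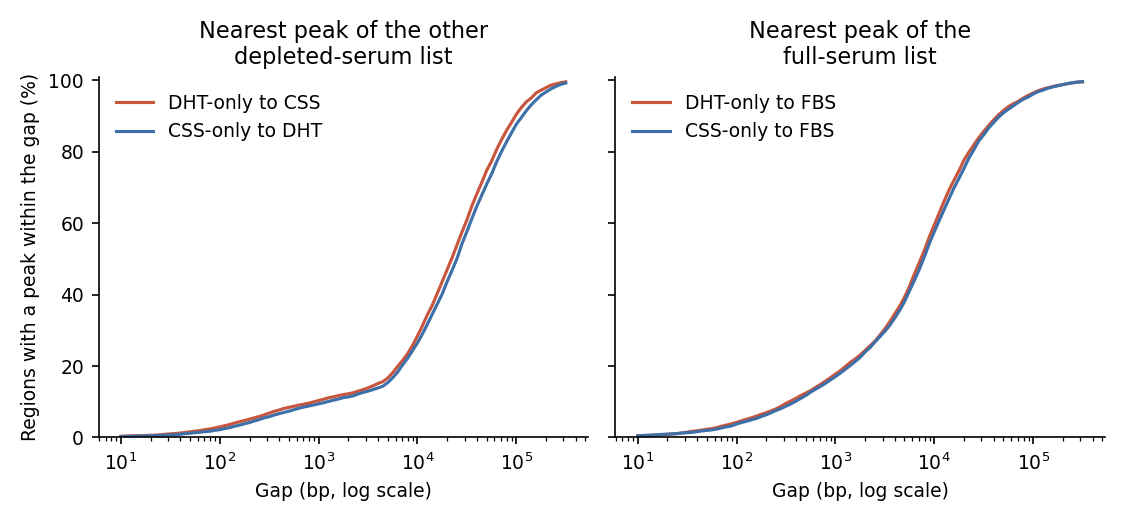
Share of regions in percent (vertical axis) with a peak within a given gap in bp (horizontal axis, log scale), for DHT-only and CSS-only regions and the nearest peak of the other hormone-depleted list (left) or of the FBS list (right). The curves of both classes run close together, and in the left panel both steepen near 5 kb.

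On no chromosome did the share of members differ from that of CSS-only regions beyond counting error, when all members were counted. The share of members on a chromosome divided by the share of CSS-only regions lay between 0.891 (0.781 to 1.02) on chromosome 7 and 1.13 (0.988 to 1.30) on chromosome 9, and 0 of the 23 exact intervals excluded 1. Among regions with a −log10 q of at least 5 (2081 DHT-only and 2162 CSS-only), 5 of the 23 intervals excluded 1. The ratio was then higher on chromosomes 3 (1.33, 1.04 to 1.72), 10 (1.46, 1.07 to 1.99) and 18 (1.748, 1.17 to 2.64) and lower on chromosomes 19 (0.721, 0.539 to 0.961) and 22 (0.652, 0.420 to 0.999). Among regions with at least 10 reads at the summit (688 and 1386) only the interval of chromosome 3 excluded 1, at 1.89 (1.22 to 2.91). The −log10 q cutoff kept 27.8% of DHT-only and 19.7% of CSS-only regions, and the read cutoff 9.19% and 12.6%. Neither cutoff is equivalent between the lists. No adjustment was made for looking at 23 chromosomes.

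Against regions with both a CSS and a DHT peak, members were unevenly spread. Members held a larger share on chromosomes 16 (1.501, 1.28 to 1.76), X (1.44, 1.24 to 1.66), 19 (1.35, 1.18 to 1.54) and 22 (1.22, 1.005 to 1.48), and a smaller share on chromosomes 7 (0.819, 0.727 to 0.921) and 11 (0.868, 0.767 to 0.981). CSS-only regions showed much of the same unevenness against the shared regions, with 7 of 23 intervals excluding 1. Their ratios were 1.54 (1.33 to 1.77) on chromosome 16, 1.54 (1.36 to 1.748) on X, 1.31 (1.16 to 1.47) on 19, 1.28 (1.08 to 1.51) on 22 and 0.881 (0.791 to 0.980) on 11. On chromosome 7 the ratio was 0.920 (0.833 to 1.01), and the other intervals without 1 were those of chromosomes 4 (0.887) and 9 (0.866).

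**Figure D5:**
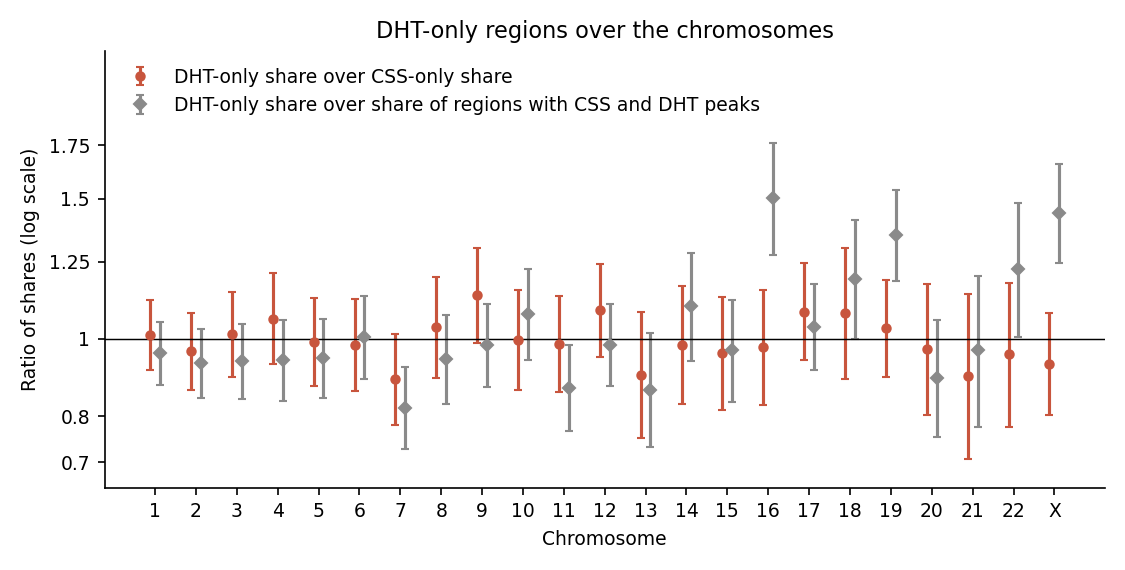
Share of DHT-only regions on each chromosome divided by the share of CSS-only regions and by the share of regions with CSS and DHT peaks (vertical axis, log scale, exact conditional 95% intervals), by chromosome (horizontal axis). No interval against CSS-only regions excludes 1, while against shared regions chromosomes 16, 19, 22 and X lie above 1 and chromosomes 7 and 11 below.

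Near chromosome ends, within 5 Mb, members were less frequent than CSS-only regions and more frequent than shared regions. Within 5 Mb of the outermost peak of a chromosome lay 886 members (11.8%, 11.1 to 12.6%), against 14.3% of CSS-only regions, a difference of -2.42 percentage points (-3.40 to -1.43). Of the regions with CSS and DHT peaks 10.0% lay there, a difference of 1.81 points (0.979 to 2.66). Within 2 Mb that difference from shared regions was 0.527 points, with an interval that includes 0 (-0.0659 to 1.15), and within 10 Mb it was 3.74 points (2.69 to 4.81). Of the regions with DHT and FBS peaks only, 10.7% lay within 5 Mb (1.16 points, -0.0785 to 2.35). Within 2 Mb the difference from that class was 0.480 points (-0.418 to 1.33), and within 10 Mb it was 2.39 points (0.842 to 3.91). Of FBS-only regions 7.81% lay within 5 Mb (4.03 points, 3.30 to 4.80). Where the −log10 q reached 5 or more, the difference between DHT-only and CSS-only was -5.93 points (-8.00 to -3.86). By reads at the summit it was -0.227 points (-1.38 to 0.956) at 3 to 5 reads, -2.86 points (-4.47 to -1.22) at 6 to 9 reads and -5.53 points (-9.44 to -1.45) at 10 reads or more. Whether these 3 differences differ from each other was not tested. The −log10 q cutoff kept 27.8% of DHT-only and 19.7% of CSS-only regions, and 10 reads or more kept 9.19% and 12.6%. The cutoffs thus did not pick equal parts of the classes. At 10 reads or more, 24.1% of DHT-only and 29.7% of CSS-only regions were near an end. Members near an end also had more reads in their 10 kb window, a median of 21 against 13 elsewhere, and CSS-only regions 27 against 15. The part of this regional read density in the difference was not tested.

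Members lay a median of 105 kb from the nearest other member, and 544 members (7.27%) had another within 10 kb. For the more numerous CSS-only regions these values were 69.3 kb and 11.4%. The values for even placement were not computed, so whether members were clumped or evenly scattered was not tested. At least 1 peak of any list lay in 2887 windows of 1 Mb. The median of these windows had 2 members and 398 of them had none. Windows without a peak were not counted. Across windows, which are not independent and share the read density of a region, Spearman's rho was 0.385 between DHT-only and CSS-only counts and 0.415 between DHT-only counts and those of the other DHT peaks.

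The window with the most members lay on the short arm of chromosome 8, from 7000001 to 8000000. It held 20 DHT-only and 2 CSS-only regions, a ratio of shares of 14.7 (3.57 to 130). This was the highest count of 2887 windows, and the interval is not adjusted for that choice. As background, not from an annotation used here, this arm carries repeated copies of defensin and other gene families. The 20 members had 5 to 9 reads at the summit, with a median of 7, and the highest −log10 q among them was 7.01. Their 10 kb windows held a median of 24 reads, against 13 for all members. The 11 CSS peaks of the window had a median of 9 reads, and 8 of them had a DHT partner.

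In that window, 8 members formed the longest run of members less than 10 kb apart, from 7575122 to 7613614. They fell into 6 groups at an almost constant spacing. Successive summits, taking the stronger peak where a pair lay within 1 kb, were 7648, 7647, 7651, 7645 and 7544 bp apart. Each of the 8 had 6, 7 or 8 reads. A second stretch of the window, from 7116579 to 7147597, held 6 DHT peaks in 5 groups, of which 4 were members and 2 also had a CSS peak. Their spacings were 7897, 7348, 7622 and 7621 bp. How reads that map to several places were treated is not stated in the sources used, and its part in these runs was not tested.

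The other windows rich in members differed less from CSS-only regions. On chromosome 16 from 30000001 to 31000000 there were 16 DHT-only and 6 CSS-only regions (ratio of shares 3.92, 1.46 to 12.2). Those 16 members had 4 to 12 reads, with a median of 6.5. On chromosome 19 from 46000001 to 47000000 there were 16 and 12 (1.958, 0.869 to 4.53). The opposite case, named after its values were seen, was the window richest in CSS-only regions, on chromosome 5 from 140000001 to 141000000, with 4 DHT-only and 29 CSS-only regions (0.203, 0.0517 to 0.577). DHT and CSS peaks of that window numbered 29 and 47. Its 4 members had 5 to 7 reads.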

How the data were processed

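The data were 3 narrowPeak lists, 1 per condition, from 5 libraries. Both DHT libraries carry the name of 1 list in the labels, and so do both CSS libraries. How their reads were combined is not stated there. The submitters' processing notes list MACS2 2.0.10.20131216, SAMtools 0.1.18 and BWA 0.7.2-r351, and hg19 as the build. Settings, control library and duplicate filter are not stated in the sources used. The authors deposited a fold enrichment (a ratio), a −log10 p and a −log10 q for each peak. The deposited score repeats the −log10 q and was not used further. Summit positions are the authors' offsets from the peak start.

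Summit pileup k and background λ were solved for each peak from fold = (k + 1)/(λ + 1) and p = P(X > k) of a Poisson variable with mean λ, with k whole and a tolerance of 0.0002 in −log10 p. On 19977 simulated peaks this recovered 100% of pileups. The background window and relative depth came from λ and the narrowest width of each list. Regions were merged at 1 bp of overlap, and bedtools 2.31.1 gave the same 7485 members. Shares have exact Clopper-Pearson 95% intervals, pileups exact Poisson ones, ratios of shares exact conditional binomial ones and differences Newcombe ones. Chromosome ends were the outermost peaks of any list, without the starts of chromosomes 13, 14, 15, 21 and 22. Positions are written with a first base of 1. The software was scipy 1.17.1, numpy 2.4.6 and pandas 2.3.3 in Python 3.11.15, with figures from matplotlib 3.10.9.

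The rule named the 10 members with the highest −log10 q, the 3 widest, the 3 lowest, the 3 nearest to and the 3 just overlapping another list, and the 3 windows with most members. The 3 with most DHT peaks could not be chosen, since each member has 1. Members and rules were chosen with earlier results of these data known. Read recovery, chromosome ends, spacing and read classes were added after seeing the data. Planned comparisons of promoters, motifs, GC content and gene lists needed hg19 sequence or annotation and were not run. The gene table used here is on GRCh38, so its coordinates were not used.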

Additional observations from a re-analysis of the deposited data

Results flagged for a closer look

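DHT-only regions were also present on sequences left out of the rule. They are listed because each count is above 3, the limit that a count of 0 allows, which tests no expected count. On the chromosomes used, 23.8% of the regions with a DHT peak were DHT-only. Alternate haplotypes of the assembly held 156 of 464 such regions (33.6%, exact 95% interval 29.3 to 38.1%), with a median of 5 reads at the summit and at most 14. Chromosome Y held 55 of 224 (24.6%, 19.1 to 30.7%), with a median of 6 reads and at most 44. Unplaced and unlocalised contigs held 24 of 144 (16.7%, 10.98 to 23.8%), with a median of 8.5 reads and at most 32.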

How the results depend on the processing

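A count was taken as stable within 1.5 times its value, which is a wide tolerance, and a share or difference within its 95% interval. By these, 4 of 15 values were stable and 11 moved. The number of DHT-only regions was 6168 with peaks within 500 bp merged, 7720 over all sequences, 10363 with 34120 top peaks per list and 7459 at a fold enrichment of at least 5. It was 4648 at a −log10 q of at least 5 in every list, and 688 with at least 10 reads at the summit. The q and fold minimums drop weak peaks from all 3 lists, and the read minimum only members. A stable count does not mean the same regions. The lower quartile of members' fold enrichment was 4.56, so the fold minimum removed members while other DHT peaks lost their partners and entered. Taking 34120 top peaks cut the FBS list from 124868 peaks. How many members stayed was not counted. The share with a CSS or FBS peak near by was 45.5% within 5 kb and 87.2% within 25 kb, and within 10 kb it was 63.2% for members at or above a −log10 q of 5 and 81.25% for those with at least 10 reads. Chromosomes whose interval excluded 1 numbered 5 at a −log10 q of at least 5 and 1 at 10 reads or more, in place of 0; the cause was not tested. The difference at chromosome ends was -5.93 points at a −log10 q of at least 5, -1.31 points within 2 Mb and -1.38 points within 10 Mb, in place of -2.42 points. Settings by summit reads and for chromosome ends were chosen after seeing the data. No paired analysis was possible because each condition is represented by 1 list, which also prevents leaving out a library. Alternatives for promoters, motifs and GC content were not run. The depth of the lists, 9.69 reads per 10 kb in DHT and 13.4 in CSS, limits what an absent call shows.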
